A study of Mus musculus with 3 samples.

Results

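Metallothioneins and antioxidant enzymes protect cells against metals, peroxides and other oxidants, and 10 of their genes were followed in mouse embryonic stem cells (ESCs) in which the Usp17l deubiquitinase family had been knocked down. The 10 genes, Mt1, Mt2, Hmox1, Nqo1, Gclc, Gclm, Srxn1, Txnrd1, Slc7a11 and Gpx4, were taken by symbol from the 32545 rows of a table of TPM, a transcript abundance scaled to gene length and to a fixed total per library. All 10 had a row, and all 10 passed the minimum of a mean TPM of 0.5 over the 3 samples that 19950 rows passed. No member reached a 2-fold difference from the control in either knockdown line. The level of Mt2 was 1.60-fold the control in line KD4 and 1.22-fold in line KD9, which were the largest ratios to control among the 10 in KD4 and the second largest, after Slc7a11, in KD9.

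The cells were E3 ESCs, a line derived from C57BL/6 × 129S6 blastocysts, and all were grown on mouse embryonic fibroblast feeders in medium with serum, LIF and β-mercaptoethanol, and harvested at passage 7. The control carried the empty vector. KD4 and KD9 each grew from a single clone selected with puromycin after transfection of short hairpin RNAs against the sequence that the 5 Usp17l genes share, so each line is 1 clone and a difference between lines cannot be told apart from a difference between clones. The sources used here do not say which hairpin each line carries. The labels describe 3 samples, 1 each of control, KD4 and KD9, whereas the table holds 2 columns for each knockdown line and, by its name, a second control column, left out because none of the 3 labels fits it. For each line the mean of its 2 columns was taken as 1 sample and both column values are given, and the control is the 1 column that matches its label.

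The knockdown was visible in the table. Usp17le, the family member with the highest level, stood at 1.82 TPM in the control, at 0.151 and 0.0637 in the KD4 columns and at 0.331 and 0.374 in the KD9 columns. The 5 Usp17l genes summed to 4.66 TPM in the control, 0.651 and 0.591 in KD4, and 1.51 and 0.683 in KD9. Their sequences are near-identical, so the split between members is uncertain. The pluripotency markers Pou5f1 and Nanog were present in every column, at 686 to 1060 TPM for Pou5f1 and 222 to 347 TPM for Nanog. Feeder-type genes differed between libraries. The 20 fibroblast markers, all detected, summed to 6092 TPM in the control, 2013 and 2061 in KD4, and 4761 and 4717 in KD9, and Col1a1, a defining collagen, was at 1198 TPM in the control, 182 and 184 in KD4, and 767 and 760 in KD9. The markers did not all follow the sum in KD9, where 7 of the 20 lay above the control, 2 of them over 2-fold. In KD4 1 lay above it and 16 were over 2-fold lower. Dcn was at 16.6 TPM in the control, 2.47 and 2.21 in KD4, and 39.7 and 40.4 in KD9. In bulk RNA, fewer cells of a type and less RNA per cell cannot be told apart, and the part of these cells in the differences described next was not tested.

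As background, the transcription factor NRF2 (Nfe2l2) is kept low by KEAP1, which targets it for degradation. When oxidants or electrophiles modify KEAP1, NRF2 accumulates and binds antioxidant response elements in the promoters of genes for glutathione synthesis, the thioredoxin system and detoxification. Metallothioneins are small cysteine-rich proteins that bind zinc, copper and cadmium, and their genes are switched on by the zinc-sensing factor MTF1 through metal response elements. Glutathione is made from cysteine, which the xCT transporter brings in as cystine, and the glutathione peroxidase GPX4 uses it to reduce lipid peroxides in membranes, which holds back ferroptosis.

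The promoter sequences are shown because the metallothioneins and Gclm were the members with the largest ratios in KD4 and Srxn1 was the member furthest below the control there. RefSeq promoter windows on GRCm38.p6, from 250 bases before to 50 bases after a start site, were found for 8 of the 10 genes (13 windows). They were searched on both strands for the antioxidant response element core TGACNNNGC and for the metal response element core, TGCACNC or TGCGCNC. Among all 32851 windows, 12.4% held the first core and 25.7% the second.
Mt2, promoter on chr8:94172368-94172617, plus strand, GRCm38.p6, with its 3 metal response element cores in capitals: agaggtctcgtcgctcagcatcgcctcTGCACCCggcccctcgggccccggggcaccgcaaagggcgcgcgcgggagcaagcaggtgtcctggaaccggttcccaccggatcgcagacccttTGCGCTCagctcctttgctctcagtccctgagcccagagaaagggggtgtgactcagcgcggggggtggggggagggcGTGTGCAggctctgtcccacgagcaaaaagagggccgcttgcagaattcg
Mt2, 30 bases of the same promoter, chr8:94172528-94172557, with the antioxidant response element core in capitals: gaaagggggtgTGACTCAGCgcggggggtg
Mt1, chr8:94179054-94179083, plus strand, with 1 metal response element core in capitals: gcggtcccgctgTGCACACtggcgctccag
Mt1, chr8:94179091-94179115, just past the start site of the window, with 2 further metal response element cores in capitals: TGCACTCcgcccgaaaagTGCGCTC
Gclm, chr3:122245307-122245486, plus strand, with the antioxidant response element core, read on the other strand, in capitals: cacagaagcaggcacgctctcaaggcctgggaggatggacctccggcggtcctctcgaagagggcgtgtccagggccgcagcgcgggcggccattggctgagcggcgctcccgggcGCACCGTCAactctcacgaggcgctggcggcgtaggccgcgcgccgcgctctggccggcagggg
Srxn1, chr2:152105274-152105523, plus strand, with 1 metal response element core, read on the other strand, in capitals: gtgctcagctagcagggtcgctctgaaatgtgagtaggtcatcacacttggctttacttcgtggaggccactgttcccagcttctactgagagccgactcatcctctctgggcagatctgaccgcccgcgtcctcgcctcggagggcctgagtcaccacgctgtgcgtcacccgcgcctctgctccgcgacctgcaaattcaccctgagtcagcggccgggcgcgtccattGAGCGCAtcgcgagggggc
Txnrd1, chr10:82859104-82859133, plus strand, upstream of an internal start site, with the antioxidant response element core, read on the other strand, in capitals: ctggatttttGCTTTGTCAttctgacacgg

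Mt2 held 3 metal response element cores in the 250 bases before its start, at 223, 128 and 50 bases upstream, and 1.26% of all windows held 3 or more in that stretch. Its antioxidant response element core lay at 79 bases upstream. Mt1 held 1 metal response element core upstream and 2 just after the start site of its window. The RefSeq gene span of Mt1 starts before that site, at position 94178883 of chromosome 8, and holds all 3 cores. The GENCODE M21 annotation also lists Mt1 transcripts that start further downstream, at positions 94179211 and 94179241. From those starts the 2 cores after the window's start site lie upstream. In Gclm the antioxidant response element core shares bases with a metal response element core read on the same strand. Srxn1 and Txnrd1 each held an antioxidant response element core, for Srxn1 only in the 50 bases after the start. Stretches close to that core but not equal to it, such as tgagtcagc in the printed Srxn1 sequence, were not counted. No window of Nqo1, Slc7a11 or Gpx4 held either core, which says only that these letters are not in these windows. Hmox1 and Gclc had no entry. A match of letters is a description and not a bound site.

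Levels of the 10 genes in the control spanned from 1614 TPM for Mt2 to 7.92 TPM for Slc7a11. Among the 19950 genes tested, Mt2 ranked 51 by control TPM, Gpx4 208, Mt1 309, Hmox1 342 and Txnrd1 698. Srxn1, Nqo1, Gclc and Gclm followed at ranks 1882, 3078, 3350 and 5660, and Slc7a11 came last at rank 11289. The members together made up 3442 TPM, or 0.344% of the total, in the control, 4938 and 4462 in KD4, and 4017 and 3667 in KD9. The metallothioneins supplied 59.2% of that sum in the control, 68.8% and 66.5% in KD4, and 63.6% and 62.0% in KD9. The other 8 genes summed to 1405 TPM in the control, 1540 and 1495 in KD4, and 1463 and 1392 in KD9, so that the metallothioneins held most of the difference in the total.

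**Figure D1:**
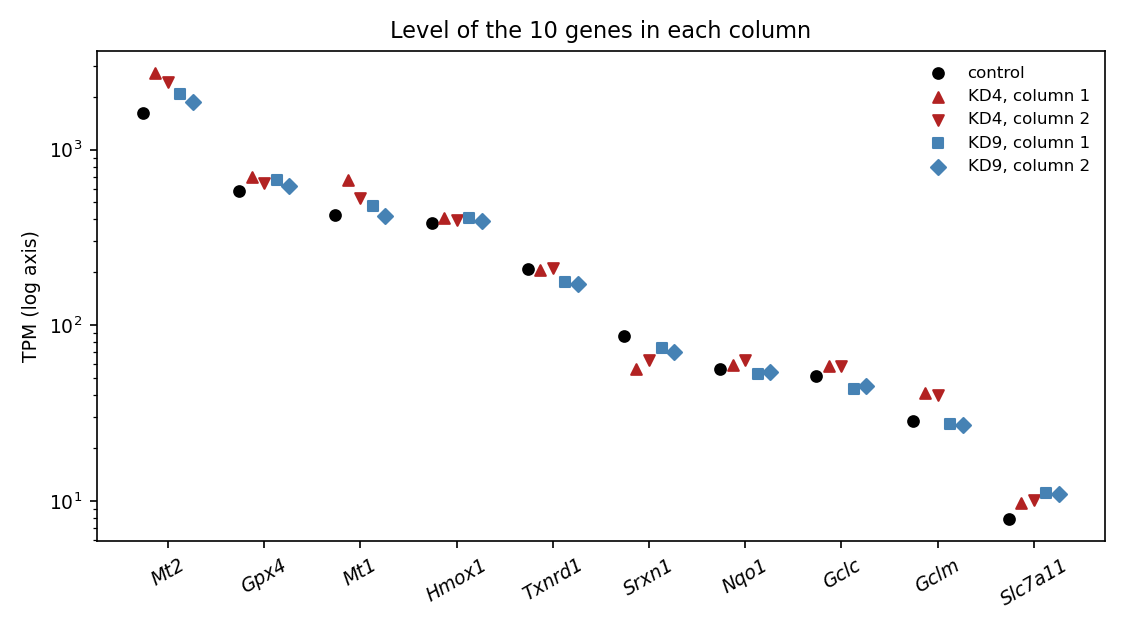
TPM of each of the 10 genes, on a log axis, in the control column and in the 2 columns of each knockdown line, with genes ordered by control level. Mt2 lies between 1614 and 2730 TPM and Slc7a11 at 7.92 to 11.1 TPM.

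Mt2 encodes a metallothionein, and its 4 knockdown columns all lay above the control. It was at 1614 TPM in the control, 2730 and 2439 in KD4, and 2076 and 1856 in KD9 (chromosome 8, 94172618 to 94173567). The KD4 columns were the highest, and the KD9 columns stood between them and the control. The share of all genes with this order was not counted. The log2 fold changes for KD4 and KD9, taken on log2(TPM + 0.1) throughout, were 0.68 and 0.28. Mt1, the neighbouring metallothionein gene (chromosome 8, 94178883 to 94180327), was at 423 TPM in the control, 668 and 528 in KD4, and 477 and 419 in KD9. Both KD4 columns were above the control, whereas the KD9 columns lay on either side of it. Its log2 fold changes for KD4 and KD9 were 0.50 and 0.08, and the 2 KD4 columns differed from each other by 0.34. The ratio of Mt2 to Mt1 TPM was 3.82 in the control, 4.09 and 4.62 in KD4, and 4.35 and 4.43 in KD9, highest in a KD4 column and lowest in the control.

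The metallothionein genes Mt3 and Mt4 were at low levels. Mt4 was listed at 0 in the control and in 1 KD9 column, and at 2.01 and 2.23 TPM in KD4 and 1.87 TPM in the other KD9 column, which allows no fold. Mt3, which was not chosen by the rule for named genes but after its values were seen, was at 0.914 TPM in the control, 0.940 and 1.43 in KD4, and 0.386 and 0.262 in KD9. The zinc and copper handling genes, 19 tested, included Mtf1 at 8.58 to 10.1 TPM in every column and Slc30a1, the zinc exporter that MTF1 is known to activate, at 18.0 TPM in the control, 15.7 and 16.8 in KD4, and 12.7 and 12.2 in KD9. Both were picked after their values were seen. Slc30a1 was thus lowest in KD9 and nowhere above the control. Of the 19 genes, 9 lay below the control in every knockdown column and 2 above it. The zinc transporter gene Slc39a14, also picked after its values were seen, was 1 of these 2. Its log2 fold changes were 0.85 (KD4) and 0.08 (KD9). Any part of zinc or MTF1 in the levels of Mt2 was not tested. The most abundant genes of that list by mean TPM were the zinc transporter gene Slc39a7, at 166 TPM in the control, 118 and 132 in KD4, and 163 and 161 in KD9, and the copper chaperone gene Atox1, at 117, 91.1 and 93.9, and 118 and 115 TPM in the same order.

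Both subunits of the enzyme that starts glutathione synthesis were higher in KD4 than in KD9. Gclm encodes the modifier subunit of glutamate-cysteine ligase, the first enzyme of glutathione synthesis (chromosome 3, 122245487 to 122267215). It was at 28.4 TPM in the control, 41.3 and 40.2 in KD4, and 27.4 and 27.0 in KD9. Both KD4 columns stood well above the other 3 columns, and the KD9 columns lay just under the control, a side that turned when samples were rescaled by median ratios (0.0040 on the log2 scale). Gclc, the catalytic subunit of the same enzyme (chromosome 9, 77754535 to 77794489), was at 51.5 TPM in the control, 58.9 and 58.3 in KD4, and 43.1 and 45.0 in KD9. Again KD4 was above the control and KD9 below it. On the log2 scale Gclm differed from the control by 0.52 in KD4 and by −0.06 in KD9, and Gclc by 0.19 and −0.22. The ratio of Gclc to Gclm TPM was 1.81 in the control, 1.43 and 1.45 in KD4, and 1.57 and 1.67 in KD9, lower in all 4 knockdown columns than in the control.

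**Figure D2:**
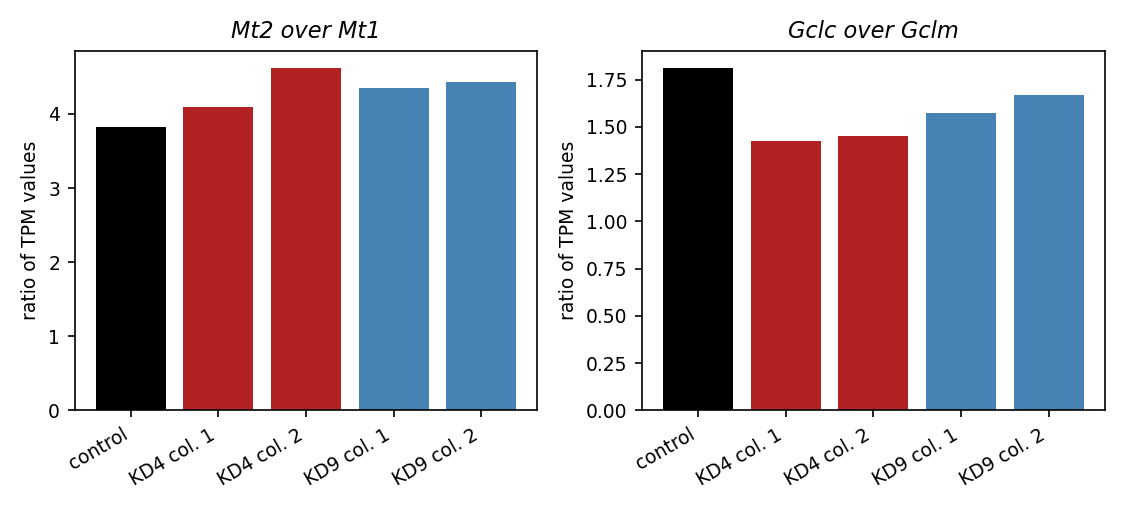
Ratios of TPM values within each column for the 2 metallothioneins, Mt2 over Mt1, and for the 2 subunits of glutamate-cysteine ligase, Gclc over Gclm; bars start at 0 and each bar is 1 column, with no error. The first ratio is lowest in the control at 3.82, and the second is highest in the control at 1.81.

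Slc7a11 encodes xCT, the cystine transporter subunit (chromosome 3, 50364936 to 50499087). It was the least abundant member, at 7.92 TPM in the control, 9.68 and 10.1 in KD4, and 11.1 and 10.9 in KD9. All 4 knockdown columns were above the control, KD9 furthest, with log2 fold changes of 0.31 (KD4) and 0.47 (KD9), and neither was called. The culture medium of all samples held β-mercaptoethanol, a thiol known to help cells take up cysteine without this transporter. Slc3a2, the partner chain of xCT that also serves other amino acid transporters, was at 367 TPM in the control, 300 and 309 in KD4, and 290 and 287 in KD9, below the control in all 4 columns. The pair thus stood on opposite sides of the control.

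Gpx4, the lipid peroxide reductase (chromosome 10, 80047166 to 80056439), was at 585 TPM in the control, 698 and 649 in KD4, and 671 and 623 in KD9. All 4 knockdown columns were above the control, with log2 fold changes of 0.20 and 0.15. Its level is uncertain, because 61.7% of the 50-base stretches of its longest coding transcript also occur in the processed pseudogene Gpx4-ps2, and only uniquely mapped reads were counted. Gpx4-ps2 itself was listed at 185 TPM in the control, 217 and 188 in KD4, and 203 and 214 in KD9, and Gpx4 and the pseudogene together at 770 TPM in the control and at 837 to 915 TPM in the knockdown columns. The same measure was below 1% in Gclm (0.776%) and Slc7a11 (0.698%) and 0 for the other 7 members. Genes of lipid peroxidation gave no gene over 2-fold among 7 tested. Acsl4, which loads the polyunsaturated fatty acids that ferroptosis needs, was at 28.4 TPM in the control, 15.8 and 16.9 in KD4, and 23.8 and 25.0 in KD9.

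Srxn1 and Txnrd1 belong to the thioredoxin and peroxiredoxin system. Srxn1, sulfiredoxin, which repairs over-oxidised peroxiredoxins (chromosome 2, 152105524 to 152111376), was the member below the control in all 4 knockdown columns. It was at 86.8 TPM in the control, 56.5 and 63.2 in KD4, and 74.2 and 70.3 in KD9. The control was the highest column and the KD4 columns were the lowest, an order whose share among all genes was not counted. Txnrd1, thioredoxin reductase of the cytosol (chromosome 10, 82833951 to 82897724), was at 209 TPM in the control, 206 and 211 in KD4, and 175 and 172 in KD9. KD4 lay around the control, and KD9 lay below every other column. On the log2 scale Srxn1 differed from the control by −0.53 in KD4 and −0.26 in KD9, and Txnrd1 by −0.00048 and −0.26.

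Among the 15 other thioredoxin and peroxiredoxin genes tested none was over 2-fold in either line, with medians on the log2 scale of −0.19 (KD4) and −0.02 (KD9). The most abundant of them were Prdx1, a peroxiredoxin, at 497 TPM in the control, 464 and 481 in KD4, and 510 and 488 in KD9; Txn1, thioredoxin itself, at 392, 431 and 531, and 469 and 452 TPM; and Txnip, the thioredoxin inhibitor, at 328, 466 and 458, and 405 and 409 TPM in the same order. Txn1 and Txnip were among 3 of the 15 that lay above the control in every knockdown column, while 7 of the 15 lay below it in every one, as Srxn1 did.

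Hmox1 and Nqo1 are standard reporters of NRF2 activity. Hmox1, haem oxygenase (chromosome 8, 75093618 to 75100593), was at 381 TPM in the control, 410 and 399 in KD4, and 408 and 390 in KD9. All 4 knockdown columns were above the control, though by only 0.09 (KD4) and 0.07 (KD9) on the log2 scale. Nqo1, a quinone reductase (chromosome 8, 107388225 to 107403205), was at 56.1 TPM in the control, 59.4 and 63.8 in KD4, and 53.1 and 54.1 in KD9, with log2 fold changes of 0.13 and −0.07. KD4 was above the control, by less than Gclm and Gclc were, and KD9 lay just below it.

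**Figure D3:**
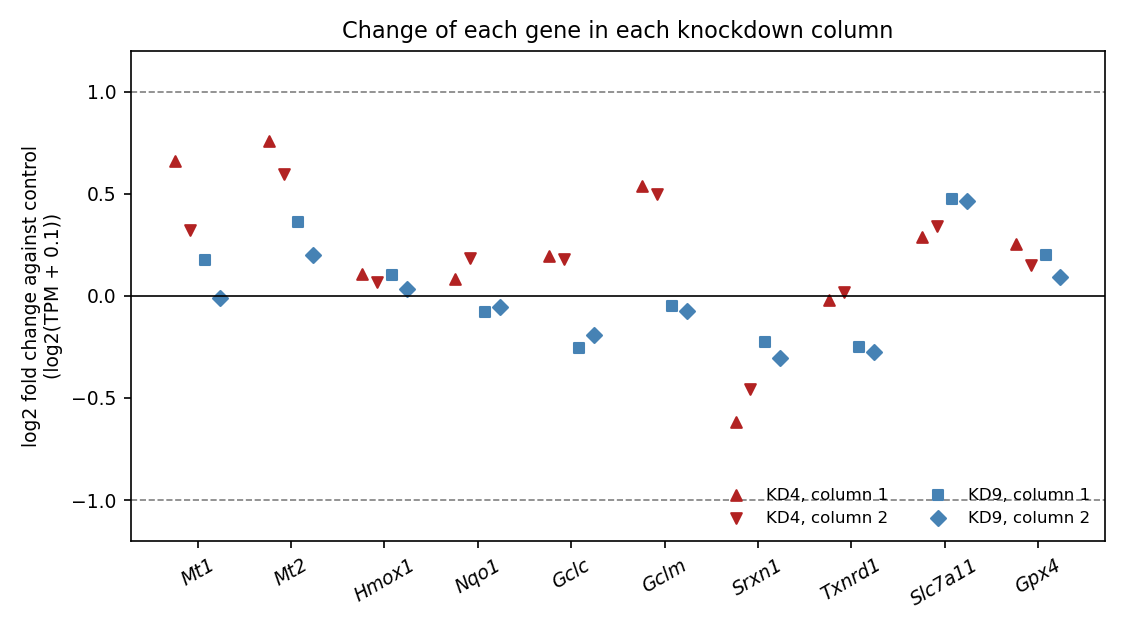
Log2 fold change of each of the 10 genes in each knockdown column against the single control column, on log2(TPM + 0.1); dashed lines mark 2-fold. All points lie between the dashed lines, Srxn1 is the gene with 4 points below 0, and Gclm, Gclc and Nqo1 have KD4 points above 0 and KD9 points below it, though rescaling by median ratios brings Gclm and Nqo1 in KD9 to 0.0040 and −0.0011.

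No member was over 2-fold higher or lower than the control in either line. Among all 19950 genes, 5.18% were over 2-fold higher and 9.50% lower in KD4, and 4.21% were higher and 5.45% lower in KD9. All 10 members had a mean TPM of at least 5, and among the 12949 genes at that level these shares were 2.26% and 5.65% in KD4 and 1.40% and 1.77% in KD9, so a count of 0 in 10 lies near the background. The 10 members had medians on the log2 scale of 0.20 for KD4 and 0.0023 for KD9, and all genes tested had −0.02 and −0.06.

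A set of 4 members, Mt2, Hmox1, Slc7a11 and Gpx4, had every knockdown column above the control, beside 20.5% of all genes tested and 21.6% of those averaging 5 TPM or more. Srxn1 alone had every one below, beside 30.1% at either minimum. Nqo1, Gclc and Gclm had both KD4 columns above and both KD9 columns below the control, beside 15.0% of genes averaging 5 TPM or more. All columns were compared with the same single control column, whose own error was not measured here. Rescaling the samples by median ratios moved KD9 up relative to the control and put Gclm in KD9 at 0.0040 and Nqo1 in KD9 at −0.0011, so the direction of these 2 genes in KD9 is not settled.

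**Figure D4:**
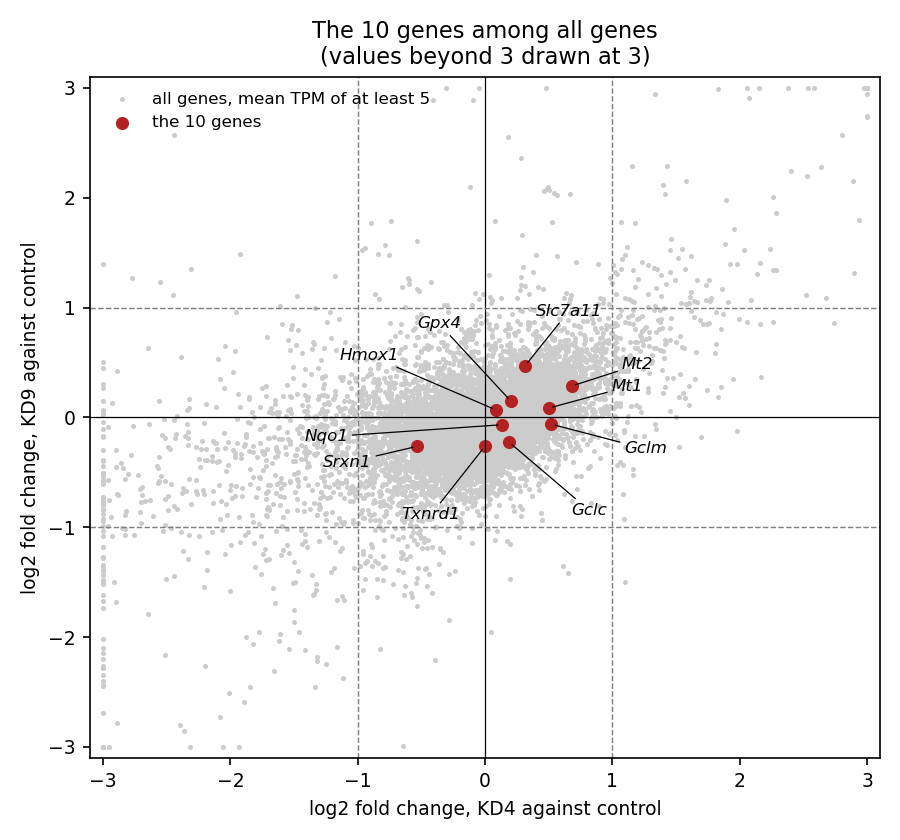
Log2 fold change in KD9 against that in KD4 for the 12949 genes that averaged 5 TPM or more (grey, values beyond 3 drawn at 3) and the 10 members (red, named); both axes use the same control column. The members lie inside the dashed 2-fold lines on both axes, within the main cloud of genes.

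Knockdown was tested with limma on 1 value per labelled sample, the 2 lines against the lone control, which was assumed to vary like them. This left 1 residual degree of freedom. No member was called, beside 0% of genes higher and 0% lower at an adjusted p under 0.05 over 19950 genes. At an unadjusted p under 0.05 there were 506 genes higher and 535 lower, and 0 members. The log2 fold change was 0.48 (SE 0.34) for Mt2, 0.39 (SE 0.28) for Slc7a11 and −0.40 (SE 0.26) for Srxn1, each with an adjusted p of 0.9996. The standard errors of the 10 members ran from 0.24 to 0.34.

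With each column as its own library (2 residual degrees of freedom, an error from the 2 columns of a line, which the labels do not describe as separate samples), limma called 3.91% of genes higher and 6.94% lower in the knockdown, and 0 members. Slc7a11 came closest, at 0.39 (SE 0.068, adjusted p 0.0528), followed by Gclm at 0.23 (adjusted p 0.0636) and Srxn1 at −0.40 (adjusted p 0.0684). Taken line by line, the same fit called 8.37% of genes higher and 12.2% lower in KD4, among them Gclm, which was higher by 0.52 (SE 0.050, adjusted p 0.0135), and Srxn1, which was lower at −0.54 (SE 0.091, adjusted p 0.0362). Mt2 missed the threshold in KD4 (0.68, SE 0.15, adjusted p 0.0573). In KD9 it called 1.99% of genes higher and 3.11% lower and none of the members, with 1 higher and 2 lower at an unadjusted p under 0.05, beside 2080 higher and 3669 lower of all 19950 genes.

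The difference between lines was tested in that fit without the control entering it. It called 14.9% of genes higher and 13.4% lower in KD4 than in KD9. The members called were higher in KD4, Gclm by 0.58 (SE 0.041, adjusted p 0.00714), Gclc by 0.41 (SE 0.041, adjusted p 0.0115) and Txnrd1 by 0.26 (SE 0.039, adjusted p 0.0229). Mt2 and Mt1 were at 0.39 (adjusted p 0.0928) and 0.41 (adjusted p 0.135) higher and did not pass. The fibroblast marker sum differed in the same comparison, 2013 and 2061 TPM in KD4 against 4761 and 4717 in KD9, as did the pluripotent marker sum, 7063 and 7006 against 5324 and 5321, with 4943 in the control. Macrophage markers summed to 40.9 and 46.1 TPM in KD4 and 90.2 and 82.8 in KD9, with 36.3 in the control and Ptprc, the defining leukocyte gene, at no more than 0.0762 TPM in any column. Of the 7 macrophage markers tested, 7 lay above the control in KD9, 4 of them over 2-fold, and 2 in KD4, 0 of them over 2-fold. Lyz2 was at 6.30 TPM in the control, 6.85 and 7.41 in KD4, and 39.2 and 35.7 in KD9. The 12 primitive endoderm markers summed to 855 TPM in the control, 284 and 297 in KD4, and 467 and 466 in KD9. All 12 lay below the control in every knockdown column, 8 of them over 2-fold in each line. The order of the lines differed between these markers. Col4a1 was at 313 TPM in the control, 80.8 and 88.3 in KD4, and 148 and 150 in KD9. Cubn was at 8.05 TPM in the control, 1.58 and 1.41 in KD4, and 0.479 and 0.504 in KD9. The part of these cell types in the members' differences was not tested.

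The regulators and neighbouring pathways were read from 10 lists that hold 130 genes, 123 of them tested. Over 2-fold, 1 was higher and 5 were lower in KD4, and 1 was higher and 1 lower in KD9. These counts are below the shares of all genes tested that were given for each line. Most of the listed genes averaged 5 TPM or more, however. At that level 2.26% of genes were higher and 5.65% lower in KD4, and 1.40% and 1.77% in KD9. The counts lie nearer to these shares. The gene counted as higher in both lines was Mt4, which was listed at 0 in the control and allows no fold, so that count rests on the pseudocount. Mt4 was also the gene counted as higher at an unadjusted p in the next sentence, which rests on the pseudocount too. The fit on labelled samples called 0 of the 123, with 1 higher and 0 lower at an unadjusted p under 0.05. The fit on columns called, for the knockdown, 1 higher and 4 lower of 18 glutathione genes, 1 and 2 of 15 thioredoxin and peroxiredoxin genes, 1 and 1 of 21 other NRF2 targets, 2 and 0 of 4 superoxide dismutase and catalase genes, and 1 and 2 of 19 zinc and copper handling genes. It called 0 and 1 of 7 lipid peroxidation genes, 0 and 2 of 13 genes of the selenoprotein machinery, 1 and 1 of 7 glucocorticoid-induced genes, and none of the NRF2 regulators or iron handling genes. These counts stand beside the 3.91% higher and 6.94% lower among all genes. Among 10 NRF2 regulators none was over 2-fold. Nfe2l2 itself was at 74.9 TPM in the control, 87.4 and 82.3 in KD4, and 85.1 and 87.8 in KD9, above the control in every column. Sqstm1, the autophagy adaptor that binds KEAP1, was below the control in every column, at 624 TPM in the control, 541 and 601 in KD4, and 553 and 546 in KD9, as was the related factor gene Nfe2l1, at 235 TPM in the control, 180 and 190 in KD4, and 215 and 218 in KD9. So was Mafk, picked after its values were seen, at 38.0 TPM in the control, 20.2 and 24.4 in KD4, and 25.8 and 26.6 in KD9. Mafk was also called lower in KD4 in the fit on columns (−0.77, SE 0.13). Of the 10 regulators, 2 lay above the control in every knockdown column and 3 below it, beside 20.5% and 30.1% of all genes tested. The fit on columns called Nfe2l1 lower in KD4 (−0.35, SE 0.058, adjusted p 0.0347) and neither Nfe2l2 nor Sqstm1 in either line.

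The other NRF2 targets, 21 tested, had medians on the log2 scale of −0.02 for KD4 and 0.25 for KD9. All genes tested had medians of −0.02 and −0.06. Of the 21 targets, 9 lay above 0 in KD4 and 17 in KD9, and the share of all genes above 0 was not counted. The ferritin genes led these targets in level. Ftl1, the light chain, was at 7278 TPM in the control, 8347 and 8175 in KD4, and 8655 and 8373 in KD9. Fth1, the heavy chain, was at 350 TPM in the control, 387 and 401 in KD4, and 520 and 493 in KD9, and its KD9 difference of 0.53 (SE 0.068) was called in the fit on columns (adjusted p 0.0474). Gsta4, a glutathione transferase for lipid aldehydes, was at 288 TPM in the control, 388 and 422 in KD4, and 318 and 298 in KD9. Each of these genes thus lay above the control in every knockdown column, Fth1 highest in KD9 and Gsta4 in KD4.

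**Figure D5:**
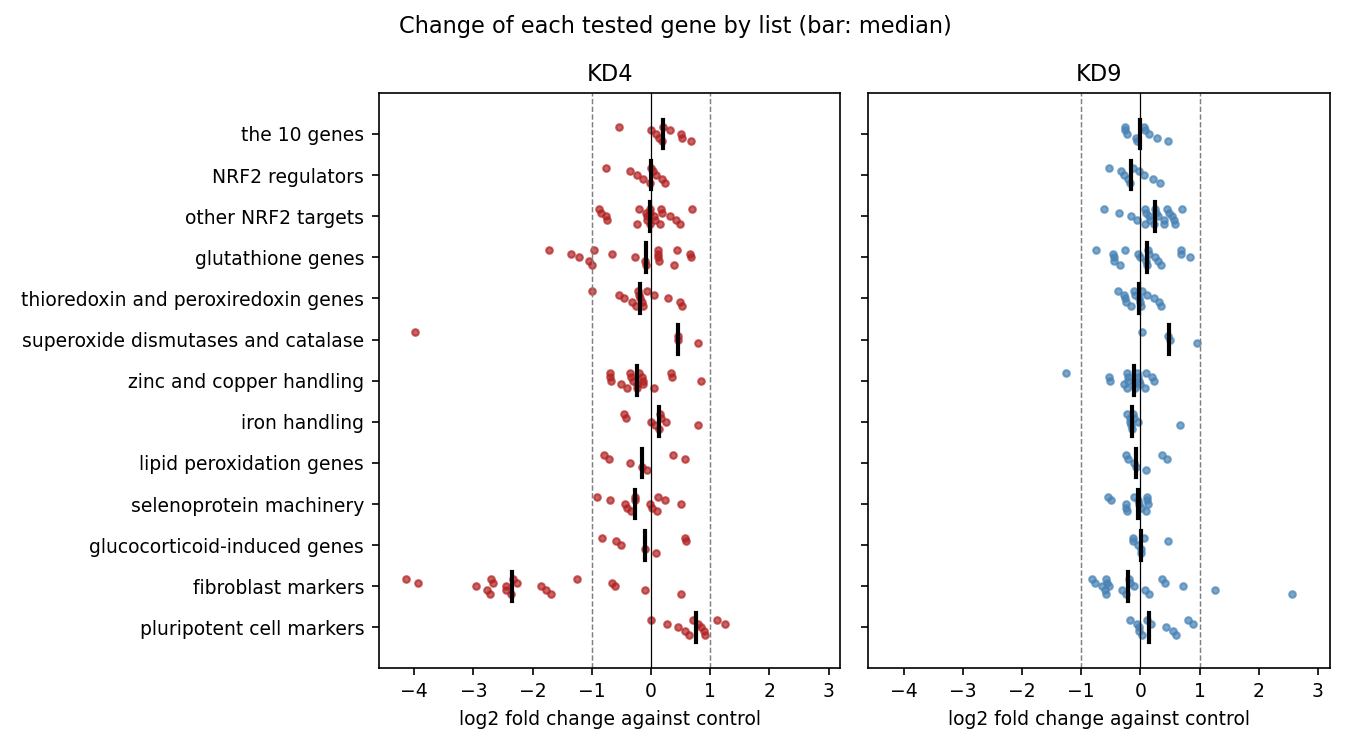
Log2 fold change of every tested gene of each list in KD4 (left) and KD9 (right) against the control, with the median as a black bar and 2-fold as dashed lines; Mt4, listed at 0 in the control, is left out. The 10 members lie within 2-fold in both lines, and the fibroblast markers are shifted down in KD4, with a median of −2.34.

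The other glutathione genes, 18 tested, had 4 over 2-fold lower in KD4 and none in KD9. Of all genes tested, 9.50% were over 2-fold lower in KD4, and 5.65% of those averaging 5 TPM or more. The 4 genes were named after their values were seen. Gpx3, a secreted glutathione peroxidase, was at 70.9 TPM in the control, 22.6 and 20.2 in KD4, and 54.7 and 49.5 in KD9. Gpx8, a peroxidase of the endoplasmic reticulum, was at 123 TPM in the control, 56.3 and 49.4 in KD4, and 126 and 118 in KD9. Glrx, glutaredoxin, was at 8.13 TPM in the control, 3.36 and 2.90 in KD4, and 13.7 and 12.6 in KD9, and Gstt1 at 3.13 TPM in the control, 1.44 and 1.49 in KD4, and 1.45 and 2.19 in KD9. Sod3, the extracellular superoxide dismutase, also picked after its values were seen, showed the same order as Glrx, at 3.99 TPM in the control, 0.0804 and 0.237 in KD4, and 7.83 and 7.86 in KD9. The fibroblast marker sum was 2013 and 2061 TPM in KD4 against 6092 in the control. In KD9 that sum was 4761 and 4717 TPM, while Glrx and Sod3 lay above the control there. Any link between these genes and the fibroblast markers was not tested.

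The most abundant glutathione genes were Gpx1, the cytosolic peroxidase, Slc3a2 and Gsto1. Gpx1 was at 423 TPM in the control, 602 and 733 in KD4, and 525 and 510 in KD9, above the control in every knockdown column. Gsto1, an omega-class transferase, was at 357 TPM in the control, 174 and 191 in KD4, and 381 and 393 in KD9, lowest in KD4.

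Sod2, the mitochondrial superoxide dismutase, and Cat, catalase, lay above the control in every knockdown column. Sod2 was at 23.0 TPM in the control, 39.5 and 40.6 in KD4, and 33.3 and 32.1 in KD9. Cat was at 53.2 TPM in the control, 73.0 and 72.3 in KD4, and 75.8 and 71.6 in KD9. In the fit on columns the knockdown was higher by 0.65 (SE 0.049, adjusted p 0.0156) for Sod2 and by 0.46 (SE 0.051, adjusted p 0.0273) for Cat, and both were called in each line, whereas the fit on labelled samples called neither. Sod1, the cytosolic enzyme, was at 150 TPM in the control, 176 and 235 in KD4, and 153 and 155 in KD9, and was not called in either fit.

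Iron handling genes (9 tested), genes of the selenoprotein machinery (13 tested) and glucocorticoid-induced genes (7 tested) had none over 2-fold in either line. Their median log2 fold changes were 0.13, −0.27 and −0.10 in KD4 and −0.14, −0.04 and 0.01 in KD9. Selenot, a selenoprotein of the endoplasmic reticulum, was at 185 TPM in the control, 131 and 140 in KD4, and 130 and 133 in KD9. Selenoh, a nuclear selenoprotein, was at 203 TPM in the control, 193 and 207 in KD4, and 133 and 146 in KD9, low in KD9. Pcbp1, an iron chaperone, was at 647 TPM in the control, 710 and 828 in KD4, and 569 and 583 in KD9, and so lay above the control in KD4 and below it in KD9, as Gclc and Gclm did. Tfrc, the transferrin receptor gene that responds to iron, was at 51.8 TPM in the control, 52.9 and 50.6 in KD4, and 45.8 and 46.3 in KD9. Glucocorticoids are known to induce metallothioneins, and their part in the members' levels was not tested. The response genes stood on both sides of the control in KD4, 3 of the 7 above it. Klf9 was at 177 and 174 TPM against 118, and Dusp1 at 76.3 and 72.9 against 133. Fkbp5 was at 53.5 and 57.4 TPM in KD4 against 36.8, and Tsc22d3 at 8.33 and 7.38 against 11.9. These last genes were named after their values were seen. In KD9 Klf9 was at 119 and 119 TPM and Dusp1 at 122 and 123, near their control levels. Sgk1, a kinase gene of the same list, was at 125 TPM in the control, 137 and 128 in KD4, and 173 and 172 in KD9, and was called higher in KD9 in the fit on columns (0.46, SE 0.061, adjusted p 0.0491).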

How the data were processed

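Poly(A) RNA of E3 ESCs was sequenced by the study. Per the labels and the study's methods, the deposited TPM came from reads trimmed by Trim Galore, mapped by HISAT2 (mm10) and, where uniquely placed, assigned to genes by featureCounts. Versions and annotation are not given in the sources used here. TPM keep no depth, so sequencing depth is unknown and no counting interval is given. Of the per-sample columns, 5 were used and 1, a second control by its name that matched no labelled sample, was not. Columns of 1 line were averaged. Values were compared as log2(TPM + 0.1) for genes averaging 0.5 TPM or more, using limma 3.58.1 in R 4.3.3 (lmFit, eBayes with a trend, two-sided, Benjamini-Hochberg over all genes tested), because the values are not counts, and tested on simulated data. With 1 sample per line, single lines have no test on labelled samples and are described by folds over 2. The study's figure legends call TPM values of this kind biological replicates, but the labels give 1 sample per line and do not say whether the columns were separate cultures, so p-values measure only the spread between these columns or lines. The members and lists were chosen with earlier results of these data known. Genes named from the pathway lists were those over 2-fold in the same direction in both lines and otherwise the most abundant, up to 3 a list; others are said to have been named after their values were seen. From each marker list the text gives the summed level and up to 3 genes, some picked after their values were seen. For some lists it adds counts of genes above or below the control. Alternatives were other pseudocounts, minima, folds, median-ratio scaling, single columns, eBayes without a trend and a fit with each column as its own library; its contrasts of single lines and between lines were added after seeing the data. Gene coordinates and promoters came from RefSeq (GRCm38.p6), other start sites from GENCODE M21.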

Additional observations from a re-analysis of the deposited data

Results flagged for a closer look

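Among the 10 genes, Gclm, Gclc and Nqo1 had both KD4 columns above the control and both KD9 columns below it, a pattern that 15.0% of genes averaging 5 TPM or more also showed. After rescaling by median ratios KD9 stood at 0.0040 for Gclm and −0.0011 for Nqo1 on the log2 scale, so their side of the control there is not settled. The log2 difference of KD4 minus KD9 was 0.58 for Gclm, 0.41 for Gclc and 0.20 for Nqo1. With each column as its own library, limma gave an adjusted p of 0.00714 for Gclm, 0.0115 for Gclc and 0.0677 for Nqo1, so the last did not pass, beside 14.9% of all genes called higher in KD4 than in KD9. Each line is 1 clone, and the labels do not describe the columns of a line as separate samples.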

How the results depend on the processing

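Of 68 values for the member counts and medians under the alternatives, 66 kept to the reported value and 2 moved. Some of the 66 could not move. Another minimum leaves the members' own folds unchanged, and a fold over 3 cannot add to a count of 0 at 2-fold. Of 190 values for single members, 10 moved and 1 reversed. Some of these could not move either. A line's fold counted as moved only beyond the standard deviation of its 2 columns, within which every single-column value fell. A change of sign was counted only for the limma values. Mt1 in KD9 went from 0.084 to −0.013 with the second column only, and was counted as kept. With a fold over 1.5 in place of 2, 1 member (Mt2) was higher in KD4. After rescaling by median ratios, the members' median log2 fold change in KD9 was 0.0684. The limma log2 fold change of Gclc reversed under this rescaling, to 0.0236 from −0.0188, with an adjusted p of 0.998. The cause was not tested. Limma on labelled samples called no gene under any other pseudocount, minimum, scaling, single column or eBayes setting. The fit on columns called 781 genes higher and 1384 lower in place of 0 and 0, and no member for the knockdown as a whole. Its contrasts added after seeing the data called 2 members in KD4, 0 in KD9 and 3 between the lines. Across alternatives the log2 fold change of Mt2 ranged from 0.40 to 0.56, and its adjusted p from 0.111 to 1.00. No paired analysis was possible because each group has 1 labelled sample. TPM without depth, and a single control column, limit what can be seen.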
